A study of Homo sapiens with 12 samples.

Results

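The transcripts of 10 genes of the BCL2 family were followed in HCT116 TIM-mAID cells, which come from a human colorectal cancer and bear a CRISPR knock-in of an auxin-responsive degron tag on TIMELESS. The genes were taken by symbol from a table of 62700 genes, and all 10 were found and passed the filter on low counts. They are the effectors BAX and BAK1, the BH3-only genes BBC3, PMAIP1, BID, BCL2L11 and BMF, and the protective genes BCL2L1, MCL1 and BCL2L2. Cells were sampled at 40 h in 4 groups of 3 libraries. The combination group (5-Ph-IAA/ATRi) received 5-Ph-IAA at 1 µM with ATRi at 1 µM, and the other groups received ATRi at 1 µM, 5-Ph-IAA at 1 µM, or DMSO. 5-Ph-IAA is an auxin analogue that directs tagged proteins to a ubiquitin ligase, and ATRi is ceralasertib, an inhibitor of the checkpoint kinase ATR. All 4 groups carry the tag, and the labels call the background wild type. Whether the line is 1 clone is not given in the sources used here. The series is about the route to cell death when DNA replication collapses.

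BCL2 family proteins decide whether the outer membrane of mitochondria is breached. BAX and BAK form the pores through which cytochrome c leaves, protective members such as BCL-XL, MCL-1 and BCL-W hold them in check, and BH3-only proteins either block the protective members or activate the effectors directly. BBC3 and PMAIP1 are also known as PUMA and NOXA, and the stress kinase JNK is known to act on BIM and BMF.

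The promoters of BAX and PMAIP1, 2 of the 3 members called in the combination, are shown because each holds a motif 4 times. Each runs from 250 bases before to 50 bases after an annotated start, 5′ to 3′ on the gene's strand, from RefSeq on GRCh38.p14. In the BAX promoter (chr19:48954625-48954924, plus strand) capitals mark the E-box CACGTG, and in the PMAIP1 promoter (chr18:59899746-59900045, plus strand) the GC box GGGCGG and the CRE half-site TGACG.
BAX: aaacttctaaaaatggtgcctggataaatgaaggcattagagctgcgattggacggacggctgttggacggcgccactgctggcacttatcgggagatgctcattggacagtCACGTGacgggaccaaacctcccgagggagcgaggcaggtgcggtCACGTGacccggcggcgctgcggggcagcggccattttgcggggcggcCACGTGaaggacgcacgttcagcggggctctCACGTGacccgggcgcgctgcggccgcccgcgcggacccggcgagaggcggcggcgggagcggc
PMAIP1: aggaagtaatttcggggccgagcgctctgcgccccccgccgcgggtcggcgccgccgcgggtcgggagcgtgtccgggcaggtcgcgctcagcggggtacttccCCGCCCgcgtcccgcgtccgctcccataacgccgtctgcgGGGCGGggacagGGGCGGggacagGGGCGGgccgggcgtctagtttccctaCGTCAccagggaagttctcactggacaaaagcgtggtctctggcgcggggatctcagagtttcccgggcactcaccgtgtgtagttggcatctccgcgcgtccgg
Motifs were searched on both strands, so a GC box can read CCGCCC and a CRE half-site CGTCA. The first E-box of BAX overlaps a CRE half-site. The BAX window held 4 E-boxes. Of 35116 promoter windows of the same length, 7.26% held at least 1 E-box and 0.0142%, or 5 windows, held at least 4. The PMAIP1 window held 4 GC boxes, as at least that many did in 9.06% of windows, and 1 CRE half-site, found in 24.6%. BID, a member that was not called, also held 4 GC boxes in the windows of its starts 1 and 4. The BBC3 window held 1 AP-1 match (TGAGTCA or TGACTCA), which 4.95% of windows held. These matches are letters in a window. Windows were matched for 8 of the 10 members, with several starts for BID, BMF and BCL2L1.

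Library totals lay between 27.7 M and 34.7 M counts. Mitochondrially encoded genes held 10.7% to 13.9% of counts in the combination, 7.40% to 13.4% with ATRi, 6.79% to 13.6% with 5-Ph-IAA and 6.63% to 14.9% with DMSO. The share was highest in set 1 of the 3 treated groups and in set 2 of the DMSO group. The gap to the next library was widest with DMSO, where set 2 held 14.9% and sets 1 and 3 held 7.85% and 6.63%. In the treated groups set 2 lay between sets 1 and 3. Levels are given as TMM-scaled CPM, which corrects each count for library size and composition. Of 10 colorectal epithelial markers, 7 averaged above 1 CPM. Their summed level was 9995 to 11438 CPM in the combination and 4295 to 6386 CPM with DMSO, with KRT8, KRT18 and KRT19 giving most of it. EPCAM had a lower mean in the combination, 358 CPM against 455 CPM with DMSO, with overlapping ranges. Means in the combination and with DMSO were 89.8 and 86.1 CPM for CDH1, 15.9 and 14.2 for CDX2, and 2.04 and 1.59 for KRT20. The part of these differences in the results below was not tested. The villin gene VIL1 and CDX1 and LGALS4 stayed under 1 CPM in every library. The 7 markers of other cell types summed to 47.5 to 72.7 CPM in the combination and 37.9 to 111 CPM with DMSO, most of it COL1A1, while PTPRC, CD3E, COL1A2 and PECAM1 reached at most 0.254 CPM. Of the 7, COL1A1 and DES averaged above 1 CPM. DES was at 2.21 to 4.72 CPM over all libraries, and VWF reached 1.40 CPM in 5-Ph-IAA 2. CDKN1A, which encodes the cell cycle inhibitor p21, was at 2027 to 2112 CPM in the combination, 595.7 to 842 with ATRi, 341 to 487 with 5-Ph-IAA and 189 to 234 with DMSO. MDM2, which encodes a ubiquitin ligase, was at 490.4 to 620.1 CPM in the combination and 110.1 to 155 with DMSO.

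With the combination, both effector genes and the BH3-only gene PMAIP1 rose against DMSO, by between 1.85-fold and 2.64-fold. No member passed as lower. Of the 10 members 3 passed edgeR's quasi-likelihood test at an adjusted p under 0.05, all of them higher, while 6.24% of the 18049 genes tested were higher by the same rule and 6.89% lower. Without DMSO 1 or without combination 3 the count was 1, BAX, while 6.68% and 7.07% of all genes were called in either direction. With all libraries that share was 13.1%. The members had a median log2 fold change of 0.56, against -0.02 for all genes tested. Their groups did not overlap, with every combination library above every DMSO library, for 7 members (BAX, BAK1, PMAIP1, BID, BCL2L11, BMF and MCL1), and 16.4% of all genes were separated in this way, with 15.9% separated downwards and no member among them. The mean was highest in the combination for 8 of the 10 members, all but BCL2L1 and BCL2L2, a count not made for all genes. In bulk RNA, more cells with a transcript and more transcript per cell cannot be told apart.

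**Figure D1:**
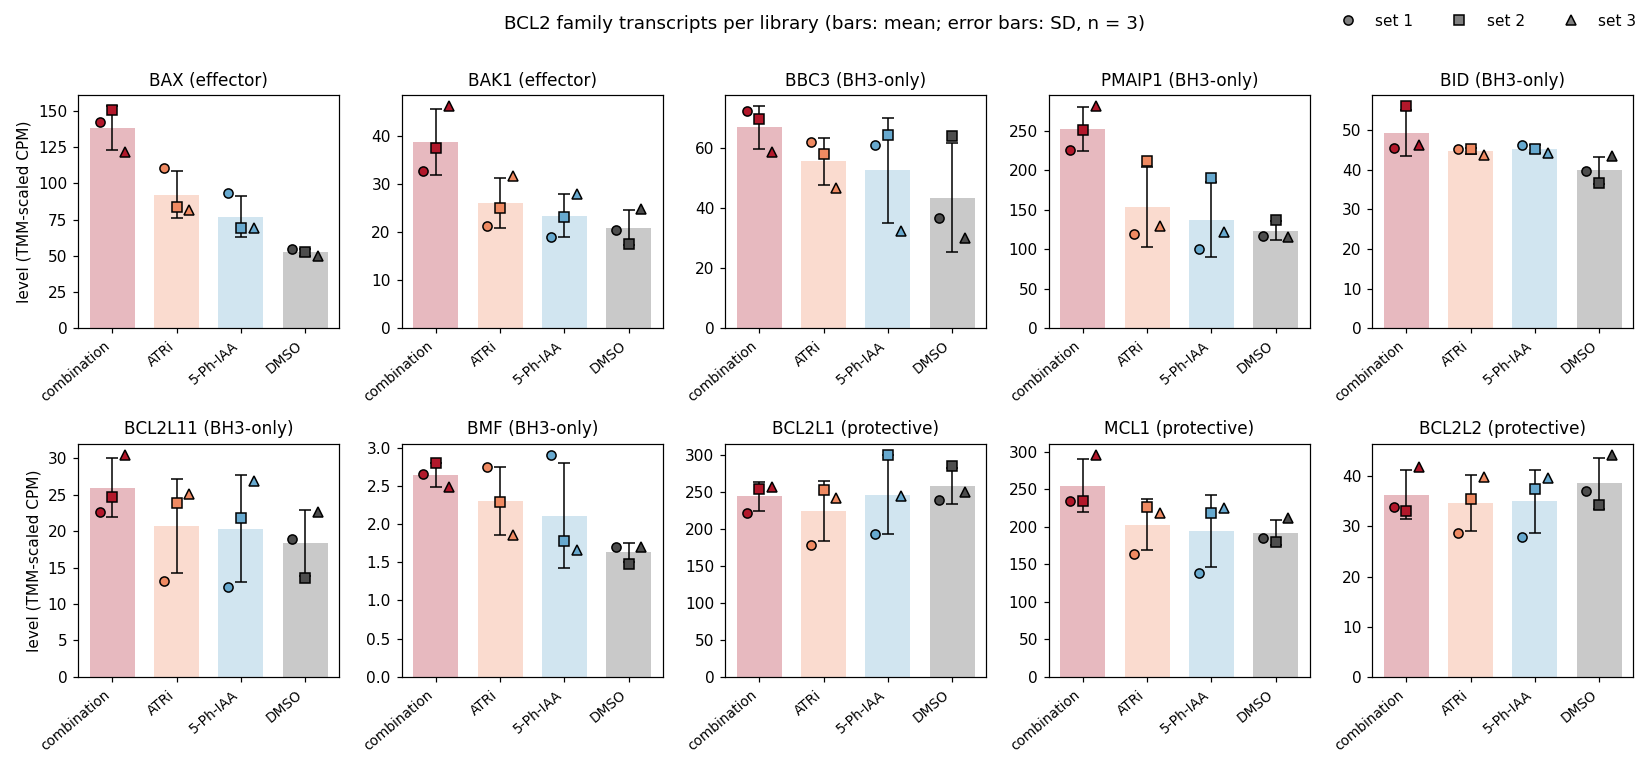
Level of each BCL2 family transcript in TMM-scaled CPM (vertical axes, each from 0) in 3 libraries of the combination, ATRi, 5-Ph-IAA and DMSO. Bars are means, error bars are SD (n = 3) and markers show the set number. The 3 combination libraries of BAX lie between 121 and 151 CPM, above all 9 others.

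BAX (ENSG00000087088.21; GRCh38.p14 chromosome 19, 48954875 to 48961798) encodes an effector that waits in the cytosol until it is activated. Its level was 142.6, 151 and 121 CPM in the combination, 111, 83.8 and 82.0 CPM with ATRi, 93.5, 69.0 and 69.0 CPM with 5-Ph-IAA, and 55.0, 52.4 and 49.8 CPM with DMSO (sets 1, 2 and 3 throughout). Every library of each treated group lay above every DMSO library, and the combination stood above all others, while ATRi and 5-Ph-IAA overlapped. Group means were 138 CPM ± 15.1 in the combination, 92.1 ± 16.1 with ATRi, 77.1 ± 14.2 with 5-Ph-IAA and 52.4 ± 2.58 with DMSO (SD, n = 3). Against DMSO, the combination gave a log2 fold change of 1.40 ± 0.16 (SE; edgeR adjusted p = 0.000356). It passed in all 6 fits that each left out 1 library, with values between 1.33 and 1.48. Against 5-Ph-IAA it was 0.84 ± 0.16 (edgeR adjusted p = 0.00895), and against ATRi 0.59 ± 0.16 (edgeR adjusted p = 0.0756), which passed with DESeq2 (adjusted p = 0.00994).

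BAX was also the member with the smallest p in each single treatment. Its log2 fold change was 0.81 ± 0.16 with ATRi (edgeR adjusted p = 0.135) and 0.56 ± 0.16 with 5-Ph-IAA (edgeR adjusted p = 1), and neither passed. With ATRi it ranked 46 of all genes by p. DESeq2 called the ATRi value (adjusted p = 0.000636).

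BAK1 (ENSG00000030110.14; chromosome 6, 33572552 to 33580276) encodes the effector that resides in the mitochondrial outer membrane. Its level was 32.8, 37.6 and 46.3 CPM in the combination, 21.4, 25.0 and 31.7 CPM with ATRi, 19.1, 23.3 and 28.02 CPM with 5-Ph-IAA, and 20.4, 17.6 and 24.9 CPM with DMSO. The combination libraries lay above the 9 others, which overlapped among themselves. BAK1 rose in the combination, with a log2 fold change of 0.89 ± 0.21 against DMSO (edgeR adjusted p = 0.0157). Leaving out DMSO 1 (0.87, adjusted p = 0.0652) or combination 3 (0.74, adjusted p = 0.0724) ended the call. Against 5-Ph-IAA it was 0.73 ± 0.21 (edgeR adjusted p = 0.0474), and that call held in 1 of 6 fits that left out a library, the one without 5-Ph-IAA 3. It was also lost with no count filter, DESeq2 size factors, only the compared groups or 8 libraries (adjusted p from 0.0521 to 0.0882 in these 4 fits). Against ATRi it was 0.58 ± 0.20 (adjusted p = 0.163). With ATRi alone the value was 0.31 ± 0.20 and with 5-Ph-IAA alone 0.16 ± 0.20 (edgeR adjusted p = 1 for each).

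PMAIP1 (ENSG00000141682.12; chromosome 18, 59899996 to 59904305) encodes NOXA, a BH3-only protein that binds MCL-1 and promotes its breakdown. Its level was 225, 251 and 281 CPM in the combination, 119, 212 and 129 CPM with ATRi, 99.7, 191 and 121 CPM with 5-Ph-IAA, and 117, 137 and 116 CPM with DMSO. Set 2 was highest in every group but the combination, and all combination libraries exceeded all others. PMAIP1 rose in the combination by 1.03 ± 0.26 on the log2 scale against DMSO (edgeR adjusted p = 0.0227). The call was lost without DMSO 1, DMSO 3, combination 2 or combination 3, with adjusted p between 0.0646 and 0.0856. Against 5-Ph-IAA the value was 0.88 ± 0.26 (edgeR adjusted p = 0.0557, and 0.0138 with DESeq2), and against ATRi 0.72 ± 0.26 (edgeR adjusted p = 0.169). It was 0.31 ± 0.26 with ATRi alone and 0.15 ± 0.26 with 5-Ph-IAA alone, neither past the threshold.

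The other BH3-only genes had positive values in the combination, and none passed. BBC3 (chromosome 19, 47220824 to 47232860) encodes PUMA, which binds all protective members. Its level was 72.4, 69.8 and 59.0 CPM in the combination, 62.0, 58.2 and 46.9 CPM with ATRi, 61.2, 64.4 and 32.5 CPM with 5-Ph-IAA, and 36.7, 64.1 and 30.0 CPM with DMSO. DMSO 2 lay inside the range of the combination and about level with the highest ATRi and 5-Ph-IAA libraries. The log2 fold change of BBC3 against DMSO was 0.62 ± 0.30 (edgeR adjusted p = 0.206, 95% interval -0.03 to 1.27). Without DMSO 2 it was 1.00 ± 0.27 and passed (edgeR adjusted p = 0.0314). With ATRi alone BBC3 had 0.35 ± 0.30 and with 5-Ph-IAA alone 0.27 ± 0.30, neither past the threshold. With the mitochondrial share as a covariate the combination value was 0.42 ± 0.15 and also passed (adjusted p = 0.0423).

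BCL2L11 (chromosome 2, 111120914 to 111168445) encodes BIM, an activator of both effectors. Its level was 22.7, 24.7 and 30.5 CPM in the combination, 13.2, 23.9 and 25.0 CPM with ATRi, 12.3, 21.8 and 26.8 CPM with 5-Ph-IAA, and 18.9, 13.5 and 22.6 CPM with DMSO. The lowest combination library barely exceeded the highest DMSO library, and set 1 of both single treatments lay below all 3 DMSO libraries. The log2 fold change against DMSO was 0.50 ± 0.31 (edgeR adjusted p = 0.342). It was 0.17 ± 0.31 with ATRi alone and 0.15 ± 0.31 with 5-Ph-IAA alone. With the mitochondrial share as a covariate the combination value was 0.80 ± 0.16 and passed (edgeR adjusted p = 0.00268).

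BMF (chromosome 15, 40087890 to 40108879), a BH3-only gene whose protein is tethered to the cytoskeleton, had the lowest counts of the members, with 42 to 92 in a library. Its level was 2.49 to 2.80 CPM in the combination and 1.48 to 1.70 CPM with DMSO, with a log2 fold change of 0.70 ± 0.25 (edgeR adjusted p = 0.0969). ATRi libraries had 1.86 to 2.74 CPM, also all above DMSO, and 5-Ph-IAA libraries 1.66 to 2.91 CPM, overlapping it. BID (chromosome 22, 17734138 to 17774665) encodes a protein that caspase-8 cleaves to link death receptors to mitochondria. It had the smallest standard error of the members, with 45.4 to 56.0 CPM in the combination, 43.8 to 45.3 with ATRi, 44.1 to 46.1 with 5-Ph-IAA and 36.6 to 43.3 with DMSO. All 9 treated libraries exceeded all DMSO libraries, yet the log2 fold change in the combination was only 0.31 ± 0.11 (edgeR adjusted p = 0.102, and 0.034 with DESeq2). It was 0.17 ± 0.11 with ATRi and 0.18 ± 0.11 with 5-Ph-IAA, and neither passed.

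None of the protective genes passed the test against DMSO in any group. MCL1 (ENSG00000143384.14; chromosome 1, 150574558 to 150579610) encodes a short-lived protein that restrains BAK. Its level was 235, 234 and 296 CPM in the combination, 163, 226 and 218 CPM with ATRi, 138.5, 219 and 224 CPM with 5-Ph-IAA, and 185, 180.2 and 212 CPM with DMSO. The combination libraries lay above all others, and both single treatments overlapped DMSO. The log2 fold change in the combination was 0.41 ± 0.20 (edgeR adjusted p = 0.215), and with the mitochondrial share as a covariate 0.53 ± 0.15 (edgeR adjusted p = 0.0144). It was 0.07 ± 0.20 with ATRi and 0.01 ± 0.20 with 5-Ph-IAA, and the sign of each depended on the fit.

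BCL2L1 (ENSG00000171552.14; chromosome 20, 31664452 to 31723963) gives rise by splicing to the protective BCL-XL and the pro-death BCL-XS, which a gene count adds together. Its level was 222, 255 and 257 CPM in the combination, 179, 253 and 242 CPM with ATRi, 194, 301 and 245 CPM with 5-Ph-IAA, and 239, 285 and 250.4 CPM with DMSO. All 4 groups overlapped. The log2 fold change against DMSO was -0.08 ± 0.18 in the combination, with a 95% interval of -0.47 to 0.31, -0.20 ± 0.18 with ATRi and -0.07 ± 0.18 with 5-Ph-IAA. BCL2L2 (chromosome 14, 23306833 to 23311751), which encodes BCL-W, was at 33.0 to 41.9 CPM in the combination, 28.6 to 39.8 with ATRi, 27.9 to 39.6 with 5-Ph-IAA and 34.3 to 44.2 with DMSO, overlapping throughout. Under the combination its log2 fold change was -0.09 ± 0.18, with a 95% interval of -0.48 to 0.30. Its reads cannot be fully told apart from those of the overlapping readthrough gene BCL2L2-PABPN1, which had 5.63 to 7.60 CPM in the combination and 3.90 to 5.92 CPM with DMSO.

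**Figure D2:**
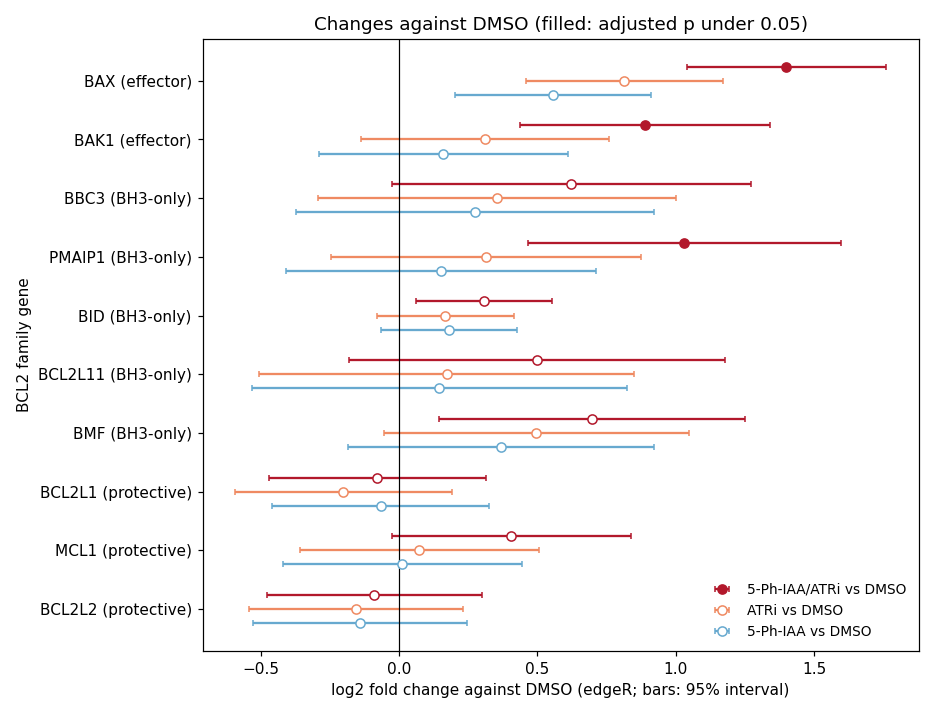
log2 fold change of each member against DMSO (horizontal axis) for the combination, ATRi and 5-Ph-IAA, from top to bottom within a gene. Points are edgeR estimates, bars 95% intervals and filled points pass an adjusted p of 0.05. The filled points are those of BAX, BAK1 and PMAIP1 in the combination, at 1.40, 0.89 and 1.03.

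Read by role, the 3 comparisons with DMSO share the DMSO libraries. In the combination both effectors rose, 1 of the 5 BH3-only genes rose and 4 did not pass, and none of the 3 protective genes passed. Of all genes tested, 6.24% were called higher and 6.89% lower in the combination. The median log2 fold change was 1.14 for effectors, 0.62 for BH3-only genes and -0.08 for protective genes. With ATRi these medians were 0.56, 0.31 and -0.15, and with 5-Ph-IAA 0.36, 0.18 and -0.07. No member passed edgeR's test with ATRi alone, where 0.0665% of genes did, or with 5-Ph-IAA alone, where 0.00554% did. At an unadjusted p under 0.05 the count was 1 of 10 in each, BAX both times. Of the 18049 genes tested, 877 had such a p with ATRi and 239 with 5-Ph-IAA. limma-voom called no member in either, and DESeq2 called BAX with ATRi and no member with 5-Ph-IAA. All libraries lay above those of DMSO for 3 members with ATRi (BAX, BID and BMF, with 4.73% of all genes) and for 2 with 5-Ph-IAA (BAX and BID, with 1.99% of all genes). Separation downwards was found for no member, and for 4.07% of all genes with ATRi and 1.38% with 5-Ph-IAA.

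Against 5-Ph-IAA alone, 2 members were called higher in the combination, BAX and BAK1, and none lower. Of all genes 9.41% passed, 4.38% higher and 5.04% lower. BAX was called in all 15 alternative fits of this comparison and BAK1 in 6 of 15. The combination set against ATRi alone called no member by edgeR, where 3.51% of genes passed, 1.63% higher and 1.88% lower. At an unadjusted p under 0.05 there were 3 (BAX, BAK1 and PMAIP1), with 2982 of the 18049 genes tested. DESeq2 called BAX, and limma-voom called none. With the mitochondrial share as a covariate BAX, BAK1 and BCL2L11 passed, while 17.7% of all genes did. With the set number added to the model as a block BAX, BAK1 and PMAIP1 passed, while 11% of all genes did. All 10 members had a positive value against ATRi, as did 49.4% of all genes, with a median of 0.30 against -0.005 for all genes. For 5 members (BAX, BAK1, PMAIP1, BID and MCL1) every combination library lay above every ATRi library, as for 12.9% of all genes.

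The interaction is the amount by which the log2 change under both agents exceeds the sum of the single changes. edgeR called no member, where 0.0776% of genes passed. No member had an unadjusted p under 0.05, as 1317 of the 18049 genes tested had, or was called by DESeq2 or limma-voom. The value was 0.03 ± 0.23 for BAX, with a 95% interval of -0.47 to 0.53. It was larger for PMAIP1 (0.56 ± 0.36, edgeR adjusted p = 0.893), BAK1 (0.42 ± 0.29, edgeR adjusted p = 0.93) and MCL1 (0.32 ± 0.28, edgeR adjusted p = 0.998), all within intervals that include 0.

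Ratios within each library set a pro-death transcript against a protective one, and 4 were computed. Counts were not divided by transcript length, so only differences between libraries are read. BAX per BCL2L1 was 0.642, 0.592 and 0.472 in the combination, 0.619, 0.331 and 0.338 with ATRi, 0.482, 0.229 and 0.281 with 5-Ph-IAA, and 0.230, 0.184 and 0.199 with DMSO. Set 1 of the ATRi group and set 1 of the 5-Ph-IAA group reached the range of the combination, and DMSO overlapped 5-Ph-IAA at 1 library. PMAIP1 per MCL1 was 0.959, 1.07 and 0.950 in the combination, 0.731, 0.938 and 0.593 with ATRi, 0.7197, 0.872 and 0.541 with 5-Ph-IAA, and 0.634, 0.761 and 0.548 with DMSO. All combination libraries were above all others, and the other 3 groups overlapped. The mean log2 difference from DMSO was 1.47 for the first ratio and 0.63 for the second in the combination. It was 1.01 and 0.21 with ATRi, and 0.63 and 0.12 with 5-Ph-IAA. The other ratios overlapped between the combination and ATRi. BAK1 per MCL1 was 0.140 to 0.161 in the combination, 0.111 to 0.145 with ATRi, 0.107 to 0.138 with 5-Ph-IAA and 0.0979 to 0.118 with DMSO. BBC3 per BCL2L1 was 0.229 to 0.326 in the combination, 0.194 to 0.347 with ATRi, 0.133 to 0.315 with 5-Ph-IAA and 0.1199 to 0.225 with DMSO.

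**Figure D3:**
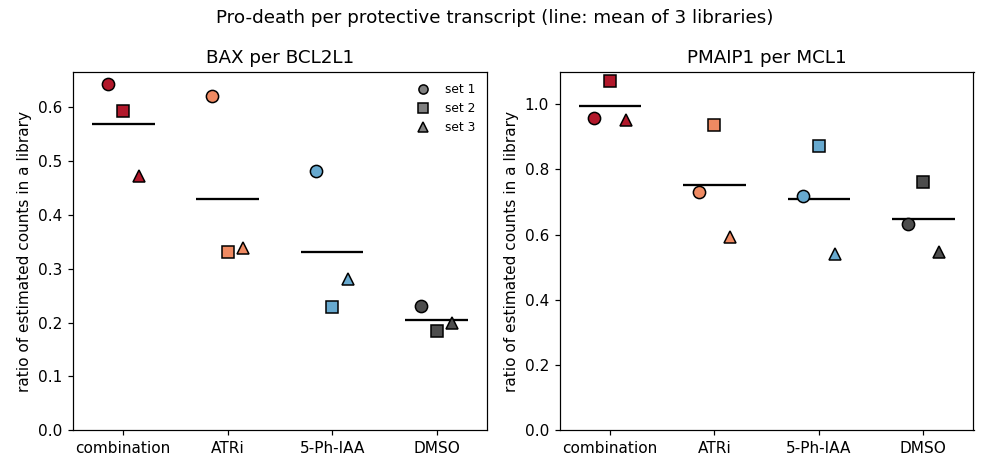
Ratio of estimated counts of BAX to BCL2L1 (left) and of PMAIP1 to MCL1 (right) in each library of the combination, ATRi, 5-Ph-IAA and DMSO, with the mean of 3 libraries as a line and the set number as marker. BAX per BCL2L1 averages 0.569 in the combination and 0.204 with DMSO, and PMAIP1 per MCL1 0.994 and 0.648.

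Within groups some members varied with the mitochondrial share, upwards or downwards, which was not computed for all genes. As a description over 12 libraries, taken as deviations from their group means, Pearson's r with that share was -0.91 for BAK1, -0.89 for BCL2L11, -0.84 for BCL2L2 and -0.71 for MCL1. It was 0.89 for BBC3, 0.61 for BAX, 0.50 for BMF, and between -0.27 and -0.04 for BCL2L1, BID and PMAIP1. Among the 45 pairs of members r ran from -0.97 for BAX and MCL1 to 0.95 for BCL2L2 and BCL2L11. All points share the library, its depth and that share. With the share as a covariate BAX (1.30 ± 0.13), BAK1 (1.07 ± 0.11) and PMAIP1 (1.03 ± 0.25) passed in the combination against DMSO, as did BBC3, BID, BCL2L11 and MCL1, while 35.7% of all genes passed in either direction in that fit. Without the library of the highest share in each group, BAX, BAK1 and PMAIP1 passed and no other member did, while 9.01% of all genes were called.

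**Figure D4:**
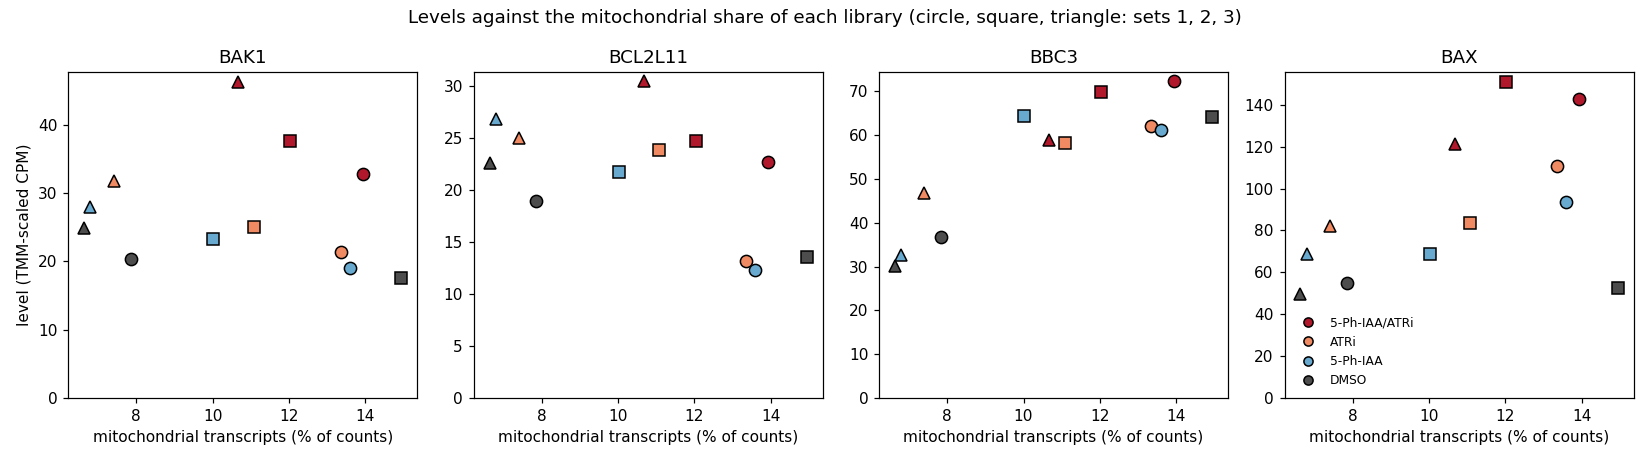
Level in TMM-scaled CPM (vertical axes, from 0) against the percentage of counts from mitochondrial transcripts (horizontal axes) for BAK1, BCL2L11, BBC3 and BAX, 1 point per library, coloured by group and shaped by set. BAK1 and BCL2L11 are lower and BBC3 higher within groups in libraries with a high share, and the combination libraries of BAK1 lie at 32.8 to 46.3 CPM across shares of 10.7% to 13.9%.

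The genes whose profiles were most like those of the 3 called members were ranked by Pearson's r of log2 CPM over the 12 libraries, among 11707 genes. They were NTPCR and MIR31HG for BAX (r = 0.98 each), STAT3 and SP6 for BAK1 (0.99 each), and CRY2 (0.96) and ZPR1 (0.95) for PMAIP1. These values share treatment and library effects.

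Of 13 other family genes 10 were tested, and 1 was called higher (BCL2L15), 1 lower (BCL2L12) and 8 neither, while 13.1% of all genes were called in either direction. Their log2 fold changes ran from -0.87 to 1.47, with a median of -0.0015. BCL2L15 (BFK) was at 3.90 to 6.75 CPM in the combination and 1.66 to 2.15 CPM with DMSO (log2 fold change 1.47 ± 0.26, edgeR adjusted p = 0.00394). BCL2L12, a divergent member, was at 13.5 to 16.3 CPM in the combination and 21.4 to 34.1 CPM with DMSO (-0.87 ± 0.19, adjusted p = 0.011, 0.0548 without combination 3). BIK, a BH3-only gene named after its values were seen, was at 35.6 to 49.99 CPM in the combination and 17.8 to 38.0 CPM with DMSO (0.80 ± 0.32, edgeR adjusted p = 0.128). BCL2 itself, the founding protective gene, was at only 1.53 to 2.13 CPM in the combination and 1.16 to 3.29 CPM with DMSO (-0.31 ± 0.38, adjusted p = 0.676). BCL2A1, BCL2L10 and BCL2L14 were too low to test.

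Of 21 genes that act on the family 2 rose, 1 fell and 18 did not pass (median log2 fold change 0.06), a called share near the 13.1% of all genes. SFN, which encodes the protein 14-3-3 sigma, reached 738 to 868 CPM in the combination, against 144 to 223 CPM with DMSO (2.05 ± 0.20, edgeR adjusted p = 0.000113). FBXW7, which encodes a ubiquitin ligase subunit that marks MCL-1 for breakdown, was at 55.8 to 60.4 CPM in the combination and 32.7 to 39.7 CPM with DMSO (0.71 ± 0.11, edgeR adjusted p = 0.00227). E2F1, a cell cycle transcription factor, fell by 1.82 on the log2 scale, to 4.94 to 6.96 CPM in the combination, against 7.40 to 31.7 CPM with DMSO (edgeR adjusted p = 0.0245, lost without any library but DMSO 2, with limma-voom and with only the compared groups).

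Of 6 genes that act once mitochondria are breached 2 rose and 4 did not pass (median log2 fold change 0.25). Of all genes 6.24% were called higher and 13.1% in either direction. CYCS, the cytochrome c gene, was at 352 to 402 CPM in the combination and 253 to 289.9 CPM with DMSO (0.45 ± 0.12, edgeR adjusted p = 0.0271). HTRA2, which encodes a mitochondrial protease, was at 48.5 to 53.4 CPM in the combination and 33.4 to 37.5 CPM with DMSO (0.54 ± 0.14, adjusted p = 0.0265). Both calls were lost when any 1 of the 6 libraries was left out, with adjusted p between 0.0561 and 0.105 for CYCS and between 0.059 and 0.0935 for HTRA2. With no count filter both were lost too (edgeR adjusted p = 0.170 for CYCS and 0.0806 for HTRA2). CYCS was also lost with only the compared groups (edgeR adjusted p = 0.0605) and with 8 libraries (0.104).

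**Figure D5:**
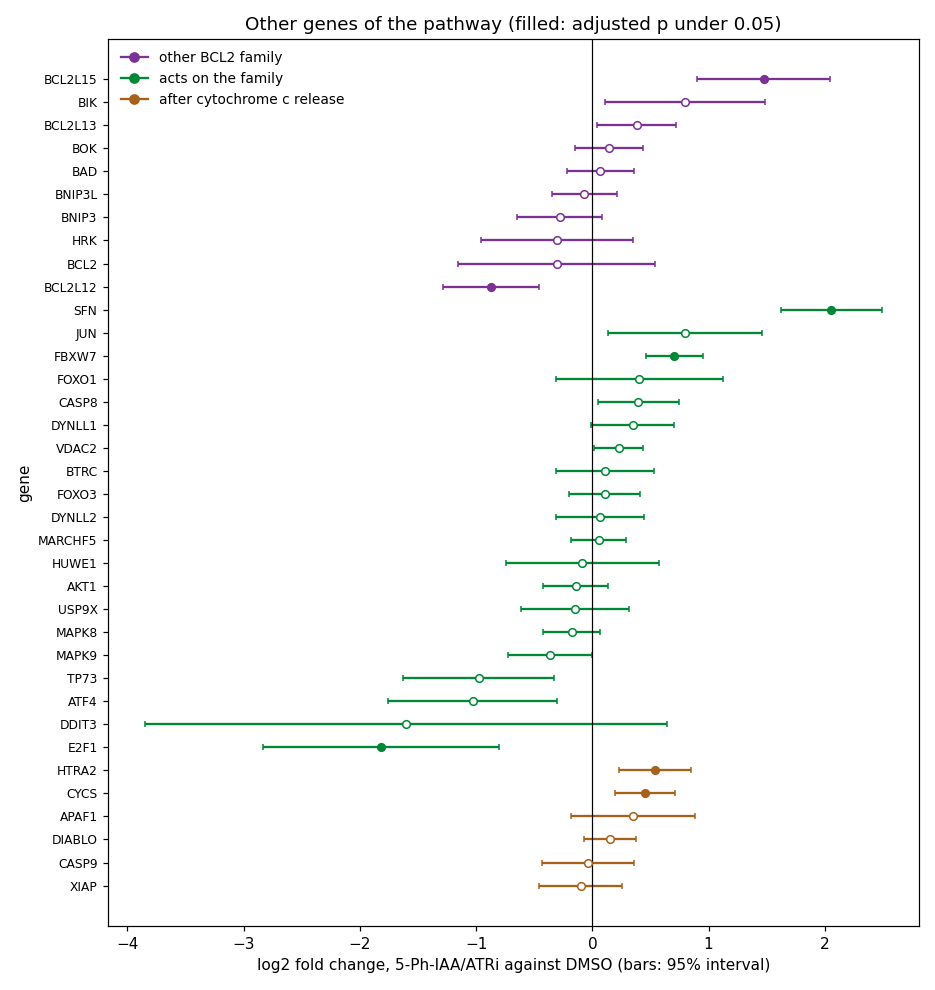
log2 fold change in the combination against DMSO (horizontal axis) for other tested genes of the pathway, coloured by list and sorted within it. Points are edgeR estimates, bars 95% intervals and filled points pass an adjusted p of 0.05. SFN (2.05), BCL2L15 (1.47), FBXW7 (0.71), HTRA2 (0.54) and CYCS (0.45) are filled on the right, and BCL2L12 (-0.87) and E2F1 (-1.82) on the left.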

How the data were processed

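Poly(A) RNA of 12 libraries was sequenced from a directional kit, per the labels' protocols. The authors deposited estimated counts per gene, not scaled to library size. The submitters' processing notes name Salmon 1.10.1, STAR 2.7.9a and the build GRCh38.p14, with Trim Galore 0.6.7 and cutadapt 3.4 besides. For the annotation release and strand setting, nothing is stated in the labels. Of the values 13.6% were not whole, and all were rounded to whole numbers. Sample titles gave each library its group and set, and the design text calls the sets biological replicates. Pairs within a group differed by far more than sampling noise (chi-square per gene at least 16.5).

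Counts were filtered with filterByExpr (minimum count 10, minimum total 15), which left 18049 genes, scaled by TMM and fitted with edgeR 4.0.16 (limma 3.58.1, R 4.3.3) in 1 model of all 12 libraries. Quasi-likelihood tests were adjusted by Benjamini-Hochberg over all genes, with a threshold of 0.05. Levels are TMM-scaled CPM and ± after a fold change is the standard error. Alternatives were DESeq2 1.42.0 and its size factors, limma-voom, no and a stricter filter (1 CPM in 3 libraries, 50 counts in total), only the compared groups, a replicate block, a mitochondrial covariate and leaving out each library. The fit of 8 libraries was chosen after seeing the data. The procedure was tested on simulated data.

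The members and lists were chosen with earlier results of these data known. Named genes are the 10 members, CDKN1A, MDM2 and BCL2, up to 4 called genes of each of 3 lists with the smallest adjusted p, and the 2 genes most like each called member with a mean of at least 5 CPM in a group (log2 with a prior count of 2). BIK, BCL2L2-PABPN1 and the single markers were named outside that rule, after their values were seen. Gene positions and promoters come from RefSeq, matched by symbol for all 10 and for 8 members. The motifs were chosen with these sequences in view. Of the list of genes that act on the family, 1 is in the counts and is not reported here.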

Additional observations from a re-analysis of the deposited data

How the results depend on the processing

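Under 21 alternatives 710 of 800 log2 fold changes of named genes stayed on the same side of 0 and of the threshold. The 3 members called in the combination against DMSO became 5 with the replicate block (BBC3 at 0.68, adjusted p = 0.0266, and BMF at 0.70, adjusted p = 0.0347, were added), 7 with the mitochondrial covariate and 4 with DESeq2 (BID added), and 1 to 4 without 1 library. The share of all genes called was 13.1% in edgeR's test, 25.3% with the block, 35.7% with the covariate and 18.1% with DESeq2. The 2 called against 5-Ph-IAA became 1 with DESeq2 size factors, 1 with only the compared groups, 1 with 8 libraries, 5 with the mitochondrial covariate, 3 (PMAIP1 added) with the stricter filter, DESeq2, limma-voom or the block, and 1 to 2 without 1 library. With no filter they were BAX and PMAIP1. The share of all genes called against 5-Ph-IAA was 9.41% in edgeR's test, 14.2% with DESeq2, 19.6% with the block and 30.5% with the covariate. It was 11.1% with the stricter filter, 9.26% with DESeq2 size factors, 8.78% with limma-voom and 6.07% with only the compared groups. With 8 libraries it was 4.47%, with no filter 3.33%, and without 1 library 4.21% to 7.26%. Against ATRi, where none was called, DESeq2 called 1 (BAX). The replicate block called 3 (BAX, BAK1 and PMAIP1) and the covariate 3 (BAX, BAK1 and BCL2L11). The share of all genes called against ATRi was 3.51% in edgeR's test, 8.6% with DESeq2, 11% with the block and 17.7% with the covariate. For ATRi against DMSO DESeq2, the block and the covariate called 1 each, BAX. No alternative called a member for 5-Ph-IAA against DMSO or for the interaction. The interaction uses all 4 groups, so it has no fit with only the compared groups. The causes of these shifts were not tested.

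Over all genes the count of 2370 in the combination against DMSO ranged from 1624 to 6449 over alternatives and from 1236 to 2376 without 1 library. That of 1699 against 5-Ph-IAA ranged from 805 to 5507 and from 777 to 1334, and that of 634 against ATRi from 64 to 3188 and from 134 to 220. For ATRi alone 12 became 0 to 122 and 3 to 11, for 5-Ph-IAA alone 1 became 0 to 18 and 0 throughout, and for the interaction 14 became 0 to 278 and 2 to 15. All were highest with the mitochondrial covariate except 5-Ph-IAA alone, highest with DESeq2.

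Values that changed sign were small and not past the threshold. For MCL1 with 5-Ph-IAA the value was -0.020 by limma-voom and -0.014 with the replicate block. For BCL2L2 in the combination it was 0.049 with the covariate, and for BCL2 0.10. With 8 libraries BCL2L1 had 0.070 in the combination, 0.17 with 5-Ph-IAA and 0.023 with ATRi. Leaving out 1 library gave -0.11 to 0.20 for MCL1, -0.23 to 0.081 for BCL2L1, -0.11 to 0.40 for BCL2L11 and -0.16 to 0.34 for PMAIP1 with 5-Ph-IAA. It gave -0.0044 to 0.41 for BCL2L11 and -0.012 to 0.21 for MCL1 with ATRi, -0.62 to 0.082 for BCL2 and -0.21 to 0.018 for BCL2L2 in the combination, and -0.052 to 0.18 for the interaction of BAX.

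The set numbers were not taken as a pairing, since the labels do not say what a set shares and not every same-numbered pair had deviations correlated above 0.1. Of 18 such pairs 13 did (r from -0.09 to 0.76), and 10 of 12 libraries correlated best with their own number, a hint from the data and not from the design. Counting error is largest for genes with few counts, such as BMF with 42 to 92 in a library, BCL2 with 33 to 118 and BCL2L15 with 47 to 190.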
